A study of Gallus gallus with 9 samples.

Results

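Among the genes of the chick dorsal mesentery, 69 reached a set minimum mean level at embryonic day 8 (E8). Their means were at 33.3% or less of that level at E12 and were still near the E12 level at E16. The mesentery is a thin sheet from the dorsal body wall that holds the small intestine, and this sheet and the gut tube it holds grow at different rates, so that the tube buckles into loops. Looping starts around E8, is in progress at E12 and is finished by E16, and the tissue was sampled to ask which genes change over that period. The sheet carries connective tissue cells between mesothelial sheets, with blood vessels and nerve fibres running through it to the gut. In bulk tissue, fewer cells of a type and less RNA per cell cannot be told apart.

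Wild-type White Leghorn embryos were used at all 3 stages. There were 3 libraries at each of E8, E12 and E16, and each library came from the pooled mesenteries of 3 embryos with the intestinal tube and the superior mesenteric artery taken away. Poly(A) RNA was sequenced, and genes received 22.96 to 30.62 M (mega) read counts per library. No label says whether the pools of a stage were collected on separate days, so the spread between libraries may be partly technical.

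The 69 genes were picked from the measured levels themselves. A gene had to reach 1 CPM (counts scaled to a mega, or M, of a library's gene counts) in at least 3 of the 9 libraries, which 14172 of the 24356 genes in the table did, and levels were then scaled between libraries with TMM factors. The mean at E8 had to be at least 10 CPM, the mean at E12 at most 33.3% of that, and the mean at E16 within 1.5-fold of the mean at E12 in either direction. Every stage and every library therefore entered the choice. The fall, the low level that followed and all tests on these contrasts are given below as descriptions of the genes chosen, and nothing is concluded from them. All 69 passed the filter on low values, as the rule requires.

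The count table names genes only by Ensembl identifier. None of its 24356 identifiers was matched in the RefSeq table of 25635 chicken genes (assembly GRCg7b) used here, so gene symbols, positions, functions and sequences are not given, and the tissue label was not checked against marker genes. The genes are described as a group, and by identifier only for the pair with the largest falls. CPM is not corrected for gene length, which the table does not give, so a higher CPM in one gene than in another does not show more transcripts of it, and genes are ranked by CPM below only by how many reads they received.

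The label of genes lost by E12 described the group poorly. At E12 the 69 genes retained a median of 27.5% of their E8 mean, with an interquartile range of 23.3% to 30.9%. A fall of under 4-fold was found for 48 genes, or 69.6%, and a fall of 5-fold or more for 10. The mean was at least 1 CPM at both E12 and E16 for 68 of the 69 genes, and at E12 it was at least 5 CPM for 44 of them. By these values the genes were reduced by E12 and 1 of them was close to lost.

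That gene was ENSGALG00000005361. It had 17.4, 19.2 and 22.4 CPM in the E8 libraries, 0.30, 0.34 and 0.036 CPM in the E12 libraries and 0.22, 0.34 and 0.27 CPM in the E16 libraries. The E8 values lay close together and far above the others, and the E12 and E16 values overlapped. The counts behind them were 458, 582 and 735 at E8, then 9, 9 and 1 at E12, and 5, 9 and 6 at E16. Its E12 mean was 1.15% of its E8 mean, an 87.0-fold fall. With so few reads at E12 the size of that fall is imprecise, and leaving out single E8 or E12 libraries moved the log2 ratio of the means between -6.87 and -5.94. It was the only 1 of the 69 genes with a count under 10 in any library.

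The second largest fall was 8.53-fold, in ENSGALG00000005932. This gene had 19.3, 37.0 and 23.5 CPM at E8, 2.37, 3.91 and 3.07 CPM at E12, and 5.01, 3.67 and 3.17 CPM at E16. Replicate 2 was the highest library at both E8 and E12. The lowest E8 value was above every later one, and the E12 and E16 values overlapped. Its log2 ratio of E12 to E8 means was -3.09, and lay between -3.29 and -2.78 when single E8 or E12 libraries were left out.

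**Figure D1:**
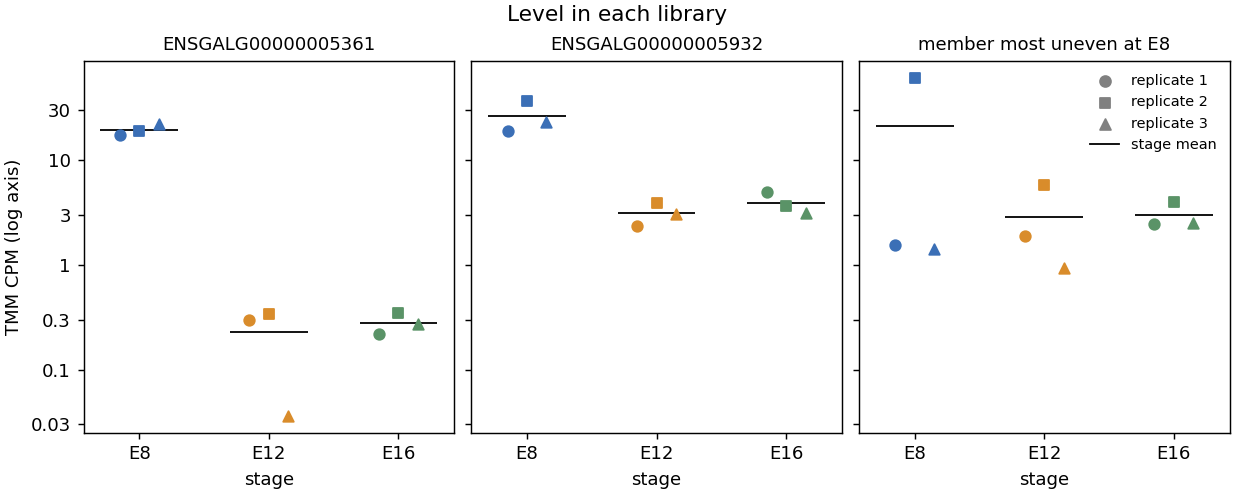
TMM-scaled CPM on a log axis (vertical) at E8, E12 and E16 (horizontal) for the pair of genes with the largest falls and for the gene with the most uneven E8 libraries; each marker is 1 library and the line is the stage mean. The first gene lies at 0.34 CPM or lower in all later libraries, the second stays between 2.37 and 5.01 CPM, and the third is high only in E8 replicate 2, at 61.3 CPM.

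By the rule, the group's summed mean had to be lower at both later stages than at E8. Each later library also lay below every E8 library in this sum. Summed over the 69 genes, the E8 libraries had 3288, 3421 and 3451 CPM, the E12 libraries 957, 927 and 956 CPM, and the E16 libraries 993, 1187 and 980 CPM. This sum averaged 3387 ± 86.3 CPM over the E8 libraries, 946.7 ± 17.5 CPM over the E12 libraries and 1054 ± 116 CPM over the E16 libraries (SD, n = 3 each). E16 replicate 2 was the one later library that stood somewhat above its neighbours. Of the raw gene counts, the 69 genes took 0.374% ± 0.015 in E8 libraries, 0.0881% ± 0.0085 in E12 libraries and 0.103% ± 0.012 in E16 libraries (n = 3 each, SD). The 5 genes with the highest E8 means made up 38.3% of the summed E8 level.

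Individual means ranged widely. At E8 they ran from 11.02 to 394 CPM with a median of 30.1 CPM, at E12 from 0.23 to 125 CPM with a median of 7.12 CPM, and at E16 from 0.28 to 168 CPM with a median of 7.65 CPM. An E8 mean under 20 CPM was found for 22 genes, 20 to 50 CPM for 33, 50 to 100 CPM for 9, and over 100 CPM for 5. The median fall was 3.60-fold in the lowest of these 4 classes, 3.70-fold and 3.58-fold in the middle ones and 3.21-fold in the highest. Across the 69 genes, which are not independent replicates, the Spearman correlation of E8 mean and fall was -0.17, and both values contain the E8 mean.

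The gene with the highest E8 mean had 399, 382 and 402 CPM at E8, 109, 127 and 138 CPM at E12, and 92.3, 107 and 103 CPM at E16. Its later libraries all lay between 92.3 and 138 CPM, so this well-counted gene was reduced but far from absent. The gene with the next highest E8 mean had 340, 336 and 393 CPM at E8, 117, 116 and 117 CPM at E12, and 154, 197 and 154 CPM at E16. Here every E16 library stood above every E12 library, although the mean had to stay within 1.5-fold.

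**Figure D2:**
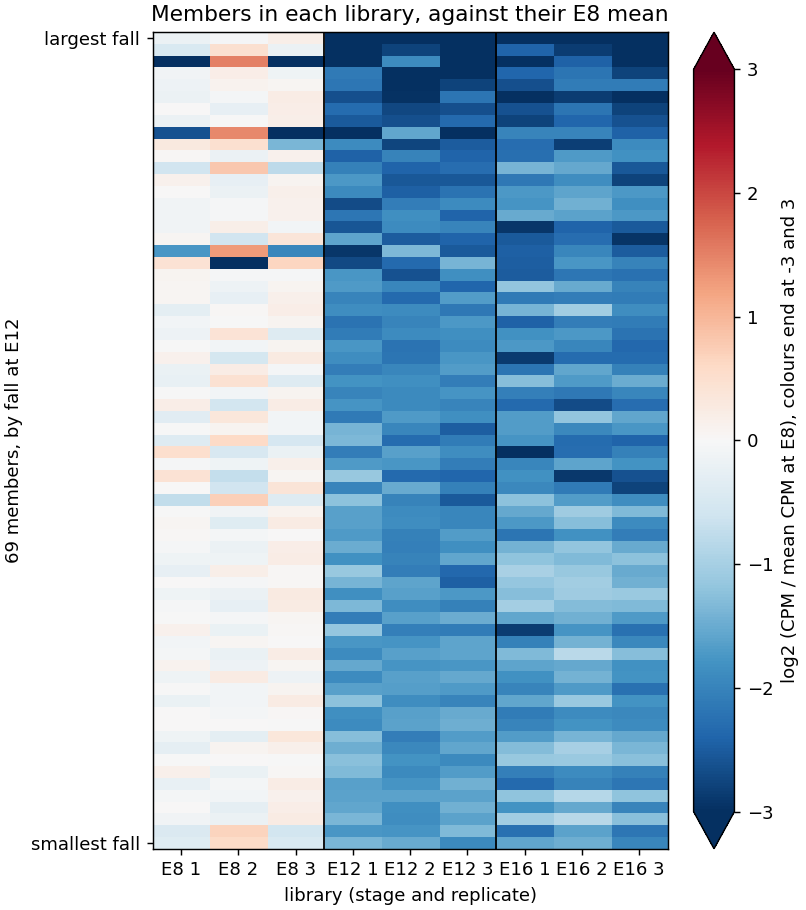
Each of the 69 genes (rows, by size of fall) in each of the 9 libraries (columns), coloured by log2 of its CPM over its own E8 mean, with colours ending at -3 and 3. Nearly all rows are pale at E8 and blue at both later stages; the 9 genes with more than 50% of their E8 level in 1 library show as rows with an uneven E8 block.

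Between E12 and E16 the genes shifted in both directions within the band that the rule allows. The E16 mean was above the E12 mean for 39 genes and below it for 30, with a median ratio of 1.033 and a range of 0.673 to 1.496. The 3 E12 values and the 3 E16 values overlapped for 50 of the 69 genes. They did not overlap for 19, against 60.5% of all 14172 genes, and since the rule limits this very difference nothing is read from it.

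In the edgeR quasi-likelihood test fitted to the whole table, at an adjusted p under 0.05, 10 of the 69 genes were higher at E16 than at E12 and 4 were lower, where 28.3% of all genes were called higher and 28.3% lower, 56.5% together. The 10 had E16 to E12 ratios of 1.377 to 1.496, and the 4 had ratios of 0.67 to 0.81. For E12 against E8, the contrast that chose the genes, 65 of the 69 were called lower, against 28.2% of all genes. For E16 against E8, 65 were called lower, against 27.7% of all genes. The 3 comparisons share libraries. In the order E12 against E8, E16 against E12, and E16 against E8, the median log2 fold change was -1.86, 0.04 and -1.90 in the 69 genes, and -0.01, -0.01 and -0.06 in all genes tested.

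The limits of the rule together keep the E16 mean at or under 50% of the E8 mean. Measured against E8, the E16 mean of the 69 genes was 26.7% at the median and 48.9% at most. It was still at or under 33.3% of the E8 mean for 49 genes and between that and 50% for 20. In E16 replicates 1, 2 and 3, the median gene stood at 26.01%, 30.6% and 25.4% of its E8 mean. In none of these libraries did the median gene reach 33.3%.

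A property of the libraries moved with the stages. At E8, 20.04% ± 0.32 of the sequenced reads fell outside any annotated feature, while the share was 13.7% ± 2.79 at E12 and 19.3% ± 0.95 at E16 (n = 3 libraries a stage, SD). With this share as a covariate, the genes called in E12 against E8 over the whole table numbered 523, against 7831 (55.3%) without it. The stage and this share cannot be told apart at E12. E16 against E8 gave 8051 genes with the covariate and 7260 (51.2%) without it. The part of this share in the levels of the 69 genes was not tested.

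Of the 9959 genes with an E8 mean of at least 10 CPM, 255 were at 33.3% or less at E12, or 2.56%. The 69 genes were 27.1% of these 255. Another 161, or 63.1%, were more than 1.5-fold higher again at E16, and 25, or 9.804%, were more than 1.5-fold lower still. Among these 255 genes, a higher mean again at E16 was more frequent than one near the E12 mean. They were picked for low E12 means and the classes were cut on the same means, so nothing is concluded from these shares. The median fall was 3.63-fold in the 69 genes, 3.64-fold in the 161 and 4.995-fold in the 25. At E16 the median gene stood at 26.7% of its E8 mean in the 69, at 69.4% in the 161 and at 7.22% in the 25, and these differences are what the classes were cut on.

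**Figure D3:**
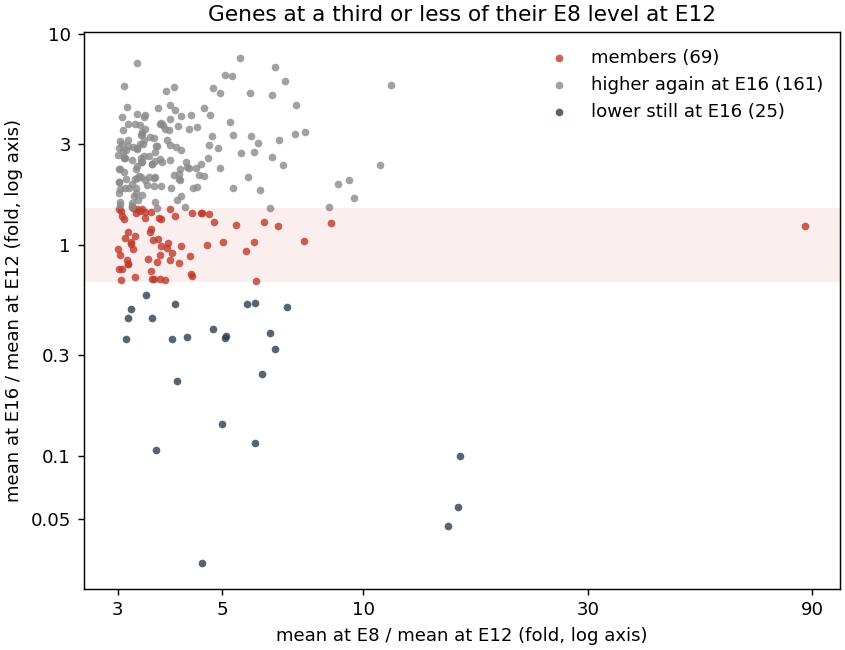
The 255 genes at 33.3% or less of their E8 mean at E12, plotted by the size of that fall (horizontal, log axis) and by the ratio of E16 to E12 means (vertical, log axis). The 69 genes (red) fill the shaded band within 1.5-fold, below 161 genes that were higher again and above 25 that were lower still, with no gap between the classes at the upper edge.

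The genes nearest each limit of the rule were picked for that nearness, so nothing is concluded from close values on either side. Just inside the upper E16 limit were ratios of 1.496 and 1.485, and just outside were 1.503 and 1.504. In other values these genes differed. Their E8 means were 241 and 17.5 CPM inside, and 93.4 and 22.6 CPM outside. Their falls were 3.23-fold and 3.39-fold inside, and 3.64-fold and 6.31-fold outside. At the lower E16 limit the nearest ratios were 0.673 and 0.685 inside, and 0.576 and 0.532 outside. At the limit on the fall the nearest genes had 3.004-fold and 3.026-fold inside, and 2.994-fold and 2.969-fold outside. The lowest E8 means inside were 11.02 and 11.02 CPM, and the highest outside, among genes that met the other limits, were 9.89 and 9.23 CPM.

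Between E8 libraries the group varied more than all genes with an E8 mean of at least 10 CPM, and a few members were very uneven. The median SD over the E8 libraries was 14.3% of the mean in the group, against 7.55% in all those genes. It was 11.3% in the 161 genes that were higher again at E16 and 18.7% in the 25 that were lower still. At the later stages the group again varied more than all genes with an E8 mean of at least 10 CPM. It varied less there than the 161 or the 25 genes. At E12 the median SD was 18.3% of the mean in the group, against 15.1% in all those genes. It was 32.1% in the 161 and 29.4% in the 25. At E16 it was 17.1% in the group, 10.3% in all those genes, 17.99% in the 161 and 23.8% in the 25. The rule kept the group low at these stages. Its median level was 7.12 CPM at E12 and 7.65 CPM at E16, against 41.8 CPM at both in all those genes. The part of level in these spreads was not tested. The highest E8 library was under 1.5 times the lowest for 47 genes, 1.5 to 2 times for 11 and at least 2 times for 11, with a median ratio of 1.33. A single library held more than 50% of the summed E8 level for 9 genes, against an even share of 33.3%. That is 13.04% of the group, against 0.914% of all genes with an E8 mean of at least 10 CPM, 2.48% of the 161 genes that were higher again and 24.0% of the 25 that were lower still. E8 replicate 2 was the high library for 8 of the 9 genes. The rule used the E8 mean, which 1 high library can raise. The spread at E8 is therefore not independent of the choice, and nothing is concluded from these shares.

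The extreme case had 1.56, 61.3 and 1.43 CPM at E8, 1.90, 5.77 and 0.94 CPM at E12, and 2.44, 4.01 and 2.54 CPM at E16. Its E8 mean rests on replicate 2, which held 95.4% of the E8 level, and in E8 replicates 1 and 3 it was no higher than at E16. Another had 7.10, 117 and 5.45 CPM at E8, 5.15, 14.6 and 4.34 CPM at E12, and 10.85, 11.004 and 8.06 CPM at E16. A further gene had 3.95, 32.4 and 3.44 CPM at E8, 1.77, 5.24 and 2.31 CPM at E12, and 2.44, 3.44 and 2.36 CPM at E16. In all 3 of these genes, chosen after their values were seen, replicate 2 was also the highest E12 library. The other 5 of the 8 genes with an uneven, high E8 replicate 2 were highest in another E12 library. Another gene showed the opposite shape at E8, with 25.95, 1.65 and 30.5 CPM, 2.97, 3.83 and 7.37 CPM at E12, and 3.49, 5.77 and 4.80 CPM at E16. It was low in replicate 2 and high in the other E8 libraries.

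These 4 genes were also the ones whose E8 and E12 values overlapped, and the 4 that were not called lower in E12 against E8 or in E16 against E8. The other 65 genes did not overlap between E12 and E8, against 31.9% of all genes with every E12 value below every E8 value. For E16 and E8, 66 genes did not overlap, against 35.8%. Without the 9 uneven genes, which were picked on these same E8 values, none of the remaining 60 overlapped between E8 and either later stage. The rule and that removal both favour this outcome, so nothing is concluded from it. The median fall of the 60 was 3.58-fold. Their summed level was 3192, 3074 and 3354 CPM at E8, 918, 877 and 922 CPM at E12, and 946, 1137 and 945 CPM at E16. Without those genes E8 replicate 2 was the lowest E8 library in this sum.

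The rule used only stage means, so it did not set which library of a stage was highest. Those means hold each library's value, so the shares below are not independent of the choice and are descriptions. At E8, 38 of the 69 genes (55.1%) were highest in replicate 3, against 32.7% of all genes passing the filter, and 9 (13.0%) in replicate 1, against 30.5%. At E16, 49 (71.01%) were highest in replicate 2, against 41.6% of all genes, and 6 (8.70%) in replicate 3, against 31.4%. The 161 genes that were higher again at E16 had 56.5% of their number highest in E16 replicate 2 and 0.62% in E16 replicate 3. Of the 38 genes highest in E8 replicate 3, 29 were also highest in E16 replicate 2, as were 71.01% of all 69 genes. The matching count over all genes was not made, so no link between these libraries is read from it. The sizes were small. The median log2 deviation from the stage mean was 0.08 in E8 replicate 3 and 0.17 in E16 replicate 2. Each was the library with the highest total of its stage, 29.9 M counts in E8 replicate 3 and 26.5 M in E16 replicate 2. At E12 the genes were most often highest in replicate 1 (36 of 69), which had the lowest total of its stage, 29.6 M counts. The part of depth in these values was not tested.

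The E12 libraries were also compared in the 69 genes and in the 161 genes that were higher again. E12 replicate 1 was the highest library for 36 of the 69 genes (52.2%), for 140 of the 161 (87.0%) and for 42.1% of all genes. The median log2 deviation in that library was 0.10 for the 69 genes and 0.44 for the 161. In E12 replicates 1, 2 and 3 the median gene stood at 28.4%, 26.7% and 25.9% of its E8 mean in the 69 genes, against 35.0%, 23.0% and 20.5% in the 161. Reads outside any annotated feature made up 16.6%, 11.03% and 13.5% of the reads in the same libraries. No test was made of the difference between the classes, whose genes are not independent.

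**Figure D4:**
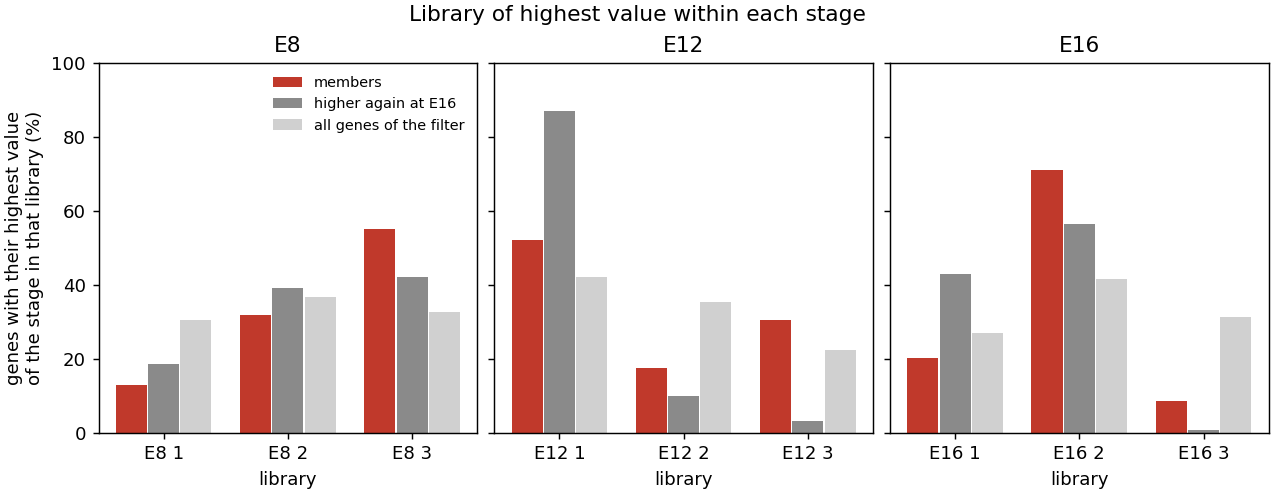
Percent of genes (vertical) whose highest value of a stage lay in each of its 3 libraries (horizontal), for the 69 genes, the 161 genes higher again at E16 and all 14172 genes passing the filter. The 69 genes lean to E8 replicate 3 (55.1%) and E16 replicate 2 (71.01%), and lean less to E12 replicate 1 (52.2%) than the 161 genes do (87.0%).

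The level in a library left out when the genes are chosen is not itself used in the choice, although the stage means it is set against below are. The rule was applied again without each library in turn, with the scaling kept, and the genes then chosen were looked up in the library left out. Chosen without 1 of the E8 libraries, 73, 69 and 60 genes met the rule for replicates 1, 2 and 3 left out. In the library left out, 49 of 73 (67.1%), 38 of 69 (55.1%) and 45 of 60 (75%) were at least 3 times the E12 mean, against 1.88%, 2.17% and 2.40% of the other genes with an E8 mean of at least 10 CPM. The median ratio to the E12 mean was 3.21, 3.14 and 3.51. For 68 of 73, 68 of 69 and 55 of 60 genes the value was above all 3 E12 values, against 40.97%, 40.002% and 41.4% of the other genes. These genes were chosen on their low E12 values and on the remaining E8 libraries, unlike the other genes. Nothing is therefore concluded from these shares.

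Chosen without 1 of the E12 libraries, 69, 56 and 69 genes met the rule. In the library left out, 36 of 69 (52.2%), 50 of 56 (89.3%) and 53 of 69 (76.8%) were at most 33.3% of the E8 mean, against 1.33%, 3.66% and 5.57% of the other genes. The median ratio to the E8 mean was 0.325, 0.257 and 0.274. Replicate 1 gave the highest of these medians. The value was below all 3 E8 values for 67 of 69, 53 of 56 and 68 of 69 genes, against 39.9%, 44.7% and 43.6% of the other genes. Here too the genes were chosen on the E8 mean in this ratio and on the remaining E12 libraries. Nothing is concluded from these shares.

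Chosen without 1 of the E16 libraries, 65, 69 and 59 genes met the rule. In the library left out, 47 of 65 (72.3%), 44 of 69 (63.8%) and 53 of 59 (89.8%) lay within 1.5-fold of the E12 mean, against 53.9%, 54.0% and 59.3% of the other genes. Nearness to the E12 level was thus frequent among the other genes too. The limit used here differs from those used for the E8 and E12 libraries, so the shares cannot be compared between stages. The genes were also chosen on the E12 mean in this ratio and are not independent, so nothing is concluded from the shares. The median ratio was 1.03, 1.33 and 0.92. The value was below all 3 E8 values for 62 of 65, 66 of 69 and 56 of 59 genes, against 48.9%, 49.3% and 50.7% of the other genes.

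**Figure D5:**
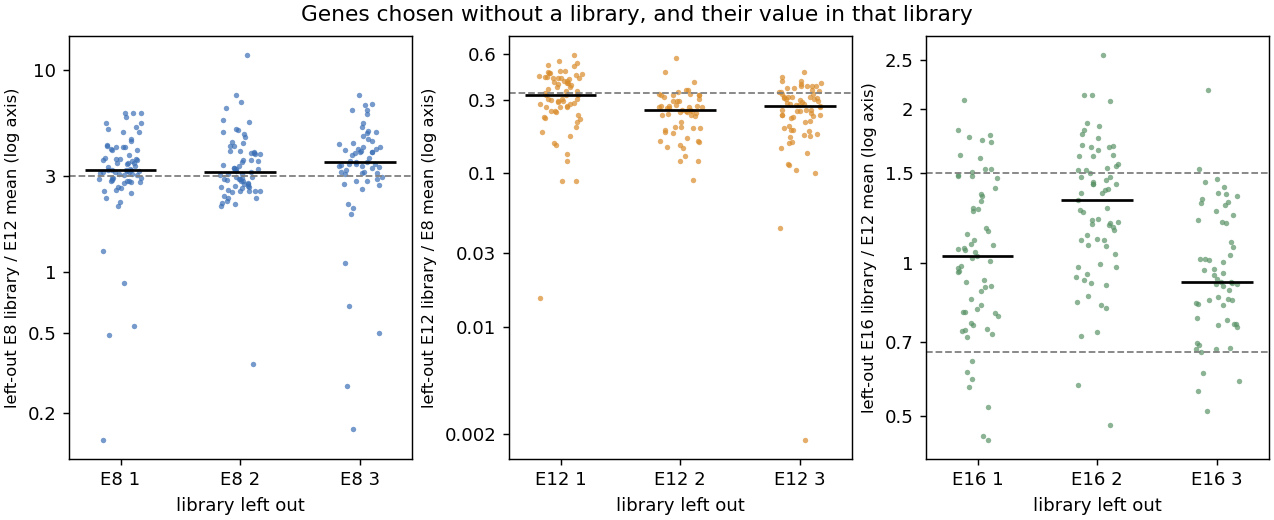
Genes chosen without 1 library, each shown as a point at its value in that library, as a ratio to the E12 mean (left and right panels) or to the E8 mean (middle panel) on log axes; the line is the median and the dashed lines are the limits of the rule. Medians lie at 3.21, 3.14 and 3.51 for E8, at 0.325, 0.257 and 0.274 for E12, and at 1.03, 1.33 and 0.92 for E16.

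Which genes met the rule depended on single libraries. Of the 69 genes, 23 were chosen again in all 9 of these repeats, 13 in 8 of them, 32 in 5 to 7 and 1 in 4. A further 48 genes were chosen in at least 1 repeat without being among the 69. The 23 genes had falls of 3.16-fold to 8.53-fold, with a median of 3.71-fold, and E16 to E12 ratios of 0.82 to 1.34. The other 46 had a median fall of 3.53-fold. The gene with the 87.0-fold fall was among those not chosen every time. With total counts in place of TMM factors, which moved the median log2 fold change of all genes to -0.26 in E12 against E8, the rule chose 104 genes, 58 of them among the 69.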

How the data were processed

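Poly(A)-selected, paired 150-base RNA-seq libraries of chick dorsal mesentery (per the labels' protocols) were grouped into 3 stages by title. The deposited table holds the authors' read counts for each Ensembl gene as whole numbers, not normalized. The submitters' processing notes name cutadapt 3.1, Trim Galore, HISAT2 2.2.1, HTSeq 0.13.5 and the build GRCg6a, without roles. The annotation release and strand setting are not given in the sources used here, so overlapping, antisense and near-identical genes are uncertain. Depth was 22.96 to 30.62 M gene counts per library. A further 5 rows of the deposited count table hold reads of no gene, on average 34.7% of reads, and stayed out of library sizes and tests.

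Members were found by the stated rule, with TMM factors and CPM from edgeR 4.0.16 in R 4.3.3. The quasi-likelihood test with robust estimation was fitted to all 9 libraries and 14172 genes, with Benjamini-Hochberg adjustment, and was checked on simulated data. Unlike the real counts, the simulated ones had a single spread for all genes and few changed genes, all lowered by a fixed factor. That check therefore covers only the working of the code. P-values measure only the spread between these libraries. Members, lists and tests were chosen with earlier results of these data known. Gene lists by symbol could not be applied because no identifier was matched. The rule for named genes then allowed the pair of members with the lowest E12 to E8 ratio. Levels of other members are quoted without identifiers, picked by highest E8 mean or most uneven E8 libraries. Alternatives were DESeq2 1.42.0, other scalings and filters, other limits of the rule, a covariate, a replicate block and each library left out. Leaving out replicate 2 of every stage together was added after the data were seen.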

Additional observations from a re-analysis of the deposited data

Results flagged for a closer look

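Reads assigned to no gene lay outside the gene comparisons and made up 34.7% of all reads on average over the 9 libraries, between 31.6% and 36.6%, where a count of 0 would allow at most 8.45e-06%. They were flagged because these rows, which the comparisons do not use, were not empty. Almost any number of such reads passes that bound, so nothing is concluded from the flag. The libraries with the lowest shares were the E12 ones, at 33.5%, 31.8% and 31.6%, against 35.2% to 36.6% at E8 and E16. No group of libraries held more than 3, so single outlying libraries were not searched for by a formal rule.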

How the results depend on the processing

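The number of genes meeting the rule was 69 and stayed within 1.5 times that number with DESeq2 size factors and other filters. The same held for E8 limits of 5 CPM (102) and 20 CPM (47). Medians in place of means gave 58, with 48 of them among the 69. With replicate 2 of every stage left out together the number was 71, with 46 among the 69, an alternative chosen after the data were seen. With each library left out in turn it ranged from 56 to 73. With total counts only it was 104, just over 1.5 times 69. It also moved by more than 1.5 times with a fall of at least 2-fold (281) or 4-fold (21). A narrower band between E16 and E12 gave 34 and one of 2-fold gave 107. By their construction, other limits on the E8 mean, the fall and the band widen or narrow the rule. Total counts moved the median log2 fold change of all genes in E12 against E8 from -0.01 to -0.26. The part of that shift in the number chosen was not tested.

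Of all genes tested, 7831 were called between E12 and E8, 8012 between E16 and E12, and 7260 between E16 and E8. A covariate for reads falling outside annotated features left 523 and 2656 in the comparisons with E12, and the cause was not tested. Requiring also a log2 change of 1 or more in size left 2843, 3184 and 3172. Leaving out single libraries gave 6149 to 8953, 6532 to 8865 and 5840 to 8061. With total counts only, 2260 genes were higher and 5390 lower in E12 against E8, against 3835 and 3996 with TMM, and 2581 and 5168 in E16 against E8, against 3339 and 3921. The replicate block gave 7640, 7834 and 7150. Same-numbered libraries came from different embryos, and their deviations correlated between -0.18 and 0.22. Those of differently numbered libraries correlated between -0.41 and 0.32. The main fit used no pairing, and these correlations cannot show whether same-numbered libraries shared a collection or preparation day. Both genes given by identifier kept their direction with total counts, DESeq2 size factors and single E8 or E12 libraries left out. The other alternatives were not run for these genes. Both were picked for the largest falls, so nothing is read from the direction. Depth limits ENSGALG00000005361, with 1 to 9 counts per later library; the other 68 genes had at least 26.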
